A study of Rattus norvegicus with 90 samples.

Results

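In rat renal cells given thioacetamide-S-oxide, 180 transcripts were near the vehicle level after 9 h of the high dose and below it after 24 h. They were chosen by their measured levels from 40071 transcripts with Ensembl identifiers. Levels are in CPM, the estimated counts of a transcript scaled to a fixed total over these transcripts in the same library. A member had a log2 ratio of mean CPM + 1, high dose over vehicle, within 0.2 of 0 at 9 h and below -0.8 at 24 h. The rule allowed for the lowest 200 transcripts, but only 180 qualified, and all of them were kept.

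The cells were primary renal proximal tubular epithelial cells of Sprague-Dawley rats, and 6 groups of 5 libraries were used: vehicle, 0.125 mM (low dose) and 0.5 mM (high dose), each for 9 and 24 h. Vehicle was the maintenance medium alone, so the medium was common to all groups. The same transcripts were also followed in primary hepatocytes of Sprague-Dawley rats (vehicle, 0.025 and 0.125 mM) and in cardiomyocytes (vehicle, 0.5 and 1.5 mM). Times were the same, again with 5 libraries per group. The sample titles and the paper do not give the strain or source of the cardiomyocytes. The labels do not say whether the 5 libraries of a group came from separate cultures or animals, so the p-values below measure the spread between these libraries, which may be technical.

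Proximal tubular epithelial cells line the first stretch of the nephron, where they take back glucose, amino acids, phosphate and filtered protein from the primary urine. They are a common site of injury by drugs and chemicals because they import and metabolize many of them. Thioacetamide-S-oxide is the reactive metabolite that cytochrome P450 and flavin-containing monooxygenases make from thioacetamide, and it is known above all as a liver toxicant. A transcript level in poly-A RNA reflects both synthesis and decay, and libraries from bulk cultures cannot tell apart fewer cells that express a transcript from less of it per cell. The files do not pair these identifiers with gene names, and no identifier matched the gene table used here, so the function of the members and the labelled cell type could not be checked against known genes. Only 4 identifiers are named, with their lengths, and other members are described by their values.

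The renal libraries held between 11415900 and 39153400 estimated counts in all, with 92.1% to 95.3% of them on the Ensembl transcripts. Between 4 and 20 of the 180 members had less than 1 count in a given renal library, and the others were detected. Low-dose library MS-145 at 24 h stood apart from the other 4 of its group: its levels were lower by a median log2 difference of -0.76 over the members and of -0.61 over the 15912 transcripts expressed in renal cells (a mean of at least 1 CPM over the 6 groups). The shares of lower transcripts in it were 78.3% of members and 77.6% of expressed transcripts, so the shift was not particular to the members. Hepatocyte vehicle library MS-183 at 24 h held 249303 counts on Ensembl transcripts, 8.33% of its total. Counts of called members and tests of named transcripts from the main edgeR fit that rest on either library are given with and without it. The alternative fits described below (DESeq2, or no filter on low counts) were made with all libraries only.

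At 24 h, the log2 ratio of high dose to vehicle ran from -3.33 to -0.80 over the members, with a median of -1.04. It was -2 or lower for 7 members, between -2 and -1 for 92, and between -1 and -0.8 for 81. The last transcript inside the limit stood at -0.800073 and the next one outside at -0.79968. At 9 h the limits lay between -0.198461 (inside) and -0.200007 (outside) and between 0.194551 (inside) and 0.205296 (outside), so neighbours on both sides of each limit were nearly equal. These values chose the members and are a description, without a test. Of 1297 transcripts below -0.8 at 24 h, 1028 were also below the 9 h window and 89 were above it.

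The late difference was made of a higher level in vehicle cultures and a lower level in high-dose cultures. From 9 to 24 h, the log2 difference in mean CPM + 1 had a median of 0.53 over the members in vehicle cultures, where 86.7% of the 180 were higher at 24 h. In high-dose cultures the median was -0.53, and 170 of 180 were lower at 24 h. Over all 15912 expressed transcripts the corresponding medians were -0.08 in vehicle and 0.01 at the high dose. Of the members, 81.1% were higher in vehicle and lower at the high dose, 24 members were lower in both and 9 were higher in both. The difference in vehicle was the larger one in size for 90 members and the difference at the high dose for the other 90. The 1028 transcripts already low at 9 h had medians of 0.02 in vehicle and -0.42 at the high dose. These contrasts use the libraries of the rule, and no test was made on them.

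The low dose, which the rule did not use, lay between these courses in its change from 9 to 24 h. Its median change was 0.04 over the members, and 0.11 without MS-145, against -0.13 and -0.04 over the expressed transcripts. For most members this change began from a raised level. At 9 h the low-dose mean was above vehicle for 81.7% of the members and below it for 33. In the main edgeR fit, the members' median log2 fold change against vehicle was 0.28 at 9 h and -0.17 at 24 h. Without MS-145 the 24 h value was -0.13. The order vehicle above low dose above high dose in the change held for 85.6% of the members, or 83.3% without MS-145, against 15.4% and 16.0% of the expressed transcripts. At 24 h the low-dose mean was between those of high dose and vehicle for 83.9% of the members, above vehicle for 27 members and below the high dose for 2. Without MS-145 the values were 75.6%, 40 and 4. Over the expressed transcripts the low-dose mean was between the others in that order for 25.8%, or 23.2% without MS-145. Since the rule itself put vehicle above the high dose at 24 h for every member, these shares are a description and nothing is read from the excess over the expressed transcripts.

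**Figure D1:**
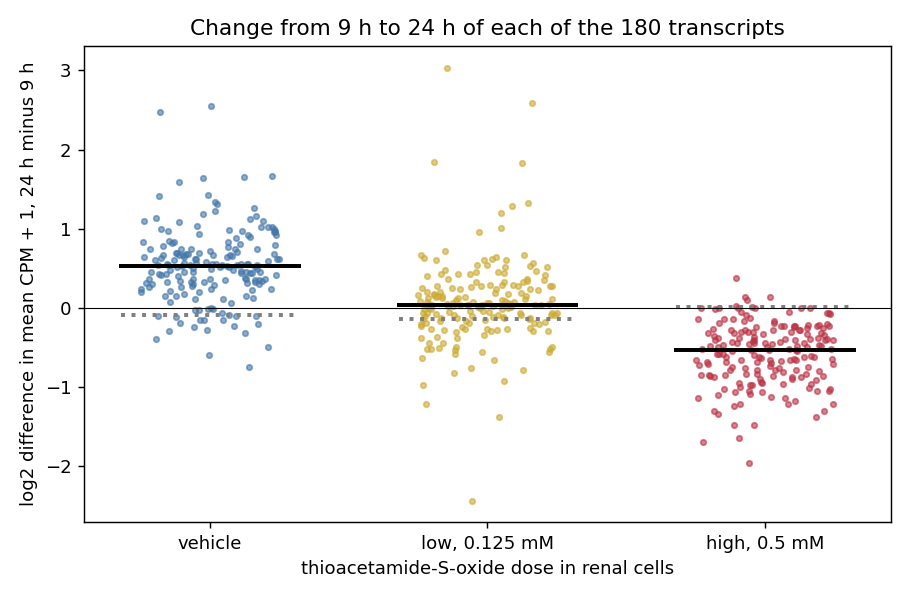
Change from 9 to 24 h of each of the 180 members in renal cells (points; y axis, log2 difference in mean CPM + 1, each mean over 5 libraries) for vehicle, low and high dose (x axis). Black lines mark the medians of the members at 0.53, 0.04 and -0.53, and dotted lines those of all 15912 expressed transcripts. The low-dose median lies between the others, while single low-dose points run from -2.43 to 3.03, beyond both. The low-dose mean at 9 h, from which the change is taken, was already above vehicle for 81.7% of the members.

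The values of single libraries show the spread behind these means. The summed CPM of the members was 14310 to 14573 in the vehicle libraries at 9 h, and 14016 to 14326 at the high dose at that time. At 24 h the vehicle libraries held 19647 to 20752 and the high-dose libraries 9157 to 9626, with no overlap between them. These are the libraries of the rule, so their separation at 24 h was built in. At the low dose the sums were 15659 to 16772 at 9 h, above all vehicle libraries, and 18350 to 20103 at 24 h in 4 libraries, with 10223 in MS-145. A single member, a transcript of 1050 bases, took 25.4% to 26.3% of the sum in vehicle at 9 h. At 24 h its share was 28.9% to 34.5% in vehicle, 31.1% to 40.98% at the high dose and 43.3% in MS-145. Without it the sums at 24 h were 12965 to 14752 in vehicle and 5405 to 6551 at the high dose, so the order did not rest on that transcript.

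**Figure D2:**
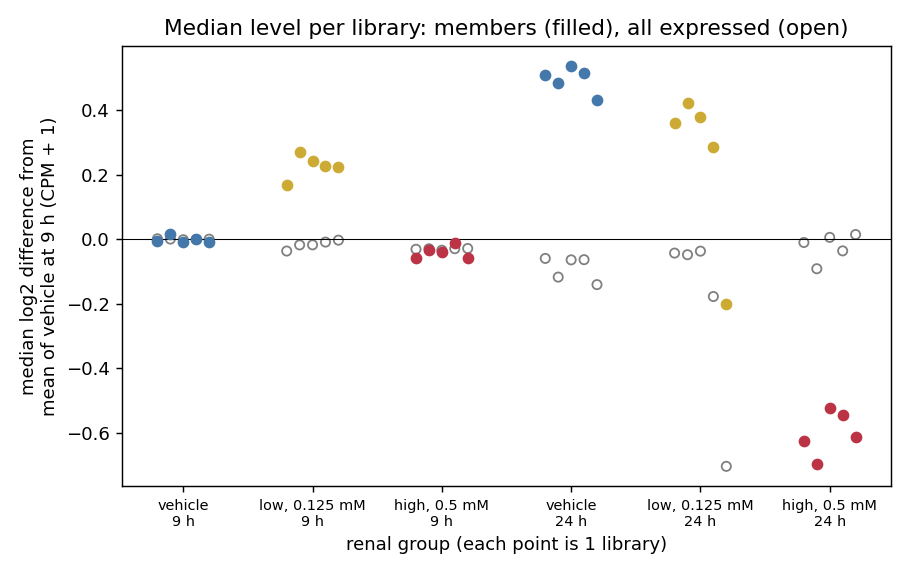
Median log2 difference of each renal library from the mean of the vehicle libraries at 9 h (y axis, CPM + 1) by group (x axis), for the 180 members (filled) and for all expressed transcripts (open); each point is 1 library. At 24 h the members lie between 0.43 and 0.54 in vehicle and between -0.70 and -0.52 at the high dose, and MS-145 is the low-dose library whose filled and open points both lie below those of its group.

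The member with the lowest ratio, ENSRNOT00000025606 (824 bases), had 7.51, 6.70, 8.05, 7.15 and 6.10 CPM in the vehicle libraries at 9 h. At 24 h it had 48.8, 43.0, 48.7, 49.7 and 41.1 CPM in vehicle and 3.43, 3.59, 4.13, 3.52 and 3.81 CPM at the high dose. All high-dose libraries at 24 h lay below even the vehicle libraries at 9 h, so the ratio of -3.33 joined a higher vehicle level to a lower high-dose level. At the low dose the values were 8.22 to 12.8 CPM at 9 h and 45.6, 50.8, 47.8, 37.4 and 24.9 CPM at 24 h, the last in MS-145. Within the low dose it rose by a log2 fold change of 2.07 (SE 0.13, n = 5 against 5, adjusted p = 4.64e-05, edgeR quasi-likelihood test with Benjamini-Hochberg adjustment). Without MS-145 it was 2.11 (SE 0.12, adjusted p = 1.03e-05, same edgeR test).

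ENSRNOT00000025258 (1770 bases) was next, with a ratio of -2.63. It had 61.9 to 66.4 CPM in vehicle and 66.0 to 72.0 CPM at the high dose at 9 h, ranges that overlapped in CPM, whereas on TMM-scaled values all high-dose libraries lay above all vehicle libraries at that time, by a log2 fold change of 0.11. At 24 h it had 133.2, 133.7, 129.8, 129.01 and 131.4 CPM in vehicle and 19.7, 22.4, 18.8, 22.7 and 18.1 CPM at the high dose. The low-dose libraries at 24 h, at 133.7, 130.2, 137.7, 142.995 and 112.7 CPM, surrounded those of vehicle. It too rose within the low dose, by a log2 fold change of 1.15 (SE 0.09, adjusted p = 0.000126, edgeR quasi-likelihood test with Benjamini-Hochberg adjustment), and by 1.07 without MS-145 (SE 0.06, adjusted p = 6.06e-06, same edgeR test). Both transcripts had whole estimated counts (within 1e-06 of an integer) in all 30 renal libraries, as when no read is divided with another transcript.

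**Figure D3:**
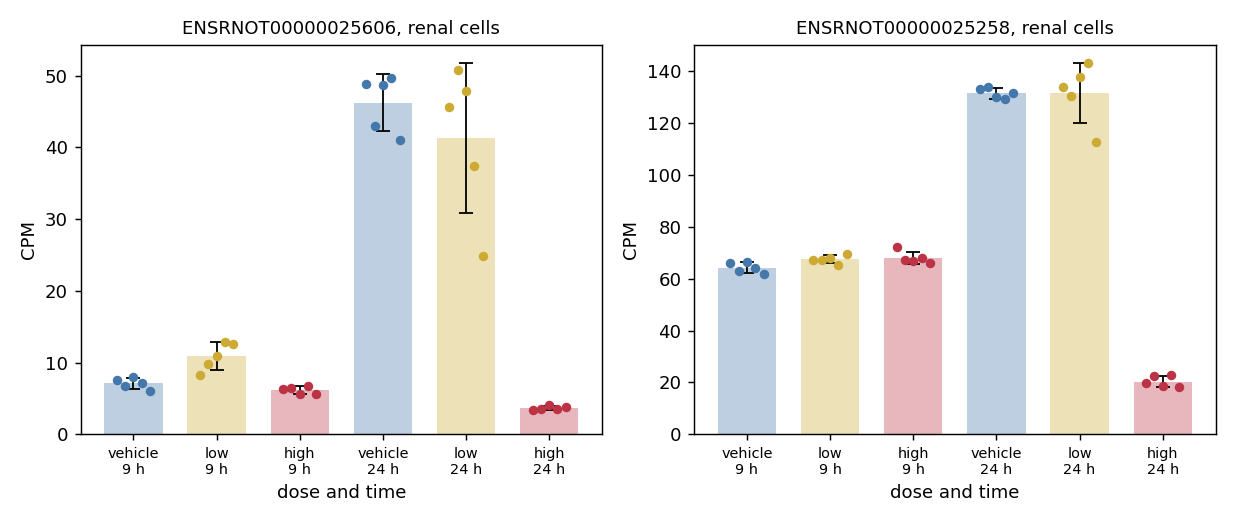
CPM (y axis) of the members with the lowest ratios, ENSRNOT00000025606 and ENSRNOT00000025258, in the 6 renal groups (x axis); points are libraries, bars means and error bars SD (n = 5). Vehicle and low dose were above their 9 h levels at 24 h, whereas the high dose was at 3.69 ± 0.28 and 20.3 ± 2.11 CPM.

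Not every member was so steady. The transcript of 1050 bases had 5864, 6516, 5987, 6000 and 6821 CPM in vehicle at 24 h and 3410, 3753, 2960, 3601 and 2975 CPM at the high dose, a ratio of -0.90. By contrast, a transcript of 6966 bases that had the third lowest ratio, -2.51, owed it to a pair of libraries: in vehicle at 24 h it had 18.6 CPM in MS-137, 4.85 CPM in MS-139 and at most 0.03 CPM in the other 3. It had 41.6 CPM in MS-145 and at most 0.01 CPM in the other low-dose libraries at 24 h. Among all members, the SD over the vehicle libraries at 24 h was more than 0.5 of the mean for 22, with a median of 0.138. Whole estimated counts in all 30 renal libraries were found for 49 members (27.2%), against 38.7% of expressed transcripts, so most members held reads that Kallisto divided among several transcripts.

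The fits over all transcripts put these differences beside the background. The call threshold was a Benjamini-Hochberg adjusted p of 0.05 together with a 1.51-fold change, or 0.41 on the natural-log scale. In the contrast that chose them, high dose against vehicle at 24 h, 8 members did not pass the filter on low counts. Of those that did, 91.9% were called lower, where 14.9% of all transcripts were, and in 87.8% all high-dose libraries lay below all vehicle libraries, against 21.0% of all transcripts. From 9 to 24 h in vehicle, 90 members were called higher and 7 were not tested (background 4.55%). At the high dose 87 were called lower and 11 were not tested (background 7.34%). Nothing is read from these counts, which use the values of the rule.

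Within the low dose, 24 h against 9 h is independent of the rule. All but 9 members were tested, and 15 rose and 1 fell. The shares over all 17584 transcripts tested were 0.921% higher and 1.54% lower. The median log2 fold change of the members tested was 0.20, against 0.01 over all. Without MS-145, 19 members rose and 3 fell, with 8 not tested (background 1.43% and 2.36%) and a median of 0.19. Leaving out any other single library gave between 6 and 10 that rose, where calls over all transcripts were fewer as well (background 0.480% to 0.749%), with 7 without MS-126, 6 without MS-127, 7 without MS-128, 8 without MS-129 and 9 without MS-141.

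Against vehicle at 9 h, the low dose gave 35 members that rose and 2 that fell of 170 tested, where 2.28% of all transcripts rose and 4.41% fell. The median log2 fold change of the members was 0.28 and 84.7% of the 170 values were above 0. In 68 members all low-dose libraries lay above all vehicle libraries, against 11.3% of all transcripts. The vehicle libraries at 9 h are those of the rule. Over all members, the low-dose mean was above vehicle at 9 h for 81.7%, against 47.2% of the expressed transcripts, and below it for 33 members. At the high dose at 9 h no member was called in either direction, as the window of the rule implies. Over all transcripts 10.9% were called lower and 8.16% higher. An unadjusted p under 0.05 in the edgeR test was found for 25% of the members tested, against 62.9% of all transcripts. On TMM-scaled values, all high-dose libraries lay below all vehicle libraries in 7 members and above them in 11.

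Against vehicle at 24 h, no member was called at the low dose in edgeR's quasi-likelihood test or in DESeq2. The background was itself small, 0.0170% lower and 0.0452% higher, and 12 members had an unadjusted p under 0.05 (6.94% of those tested, against 6.33% of all transcripts), with 7 not tested. The median log2 fold change was -0.17, with 130 values below 0 and 43 above. The vehicle libraries are again those of the rule. Without MS-145 no member was called (background 0.0892% lower and 0.206% higher), 30 had an unadjusted p under 0.05 (17.3%, against 11.0% of all) and the median was -0.13.

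**Figure D4:**
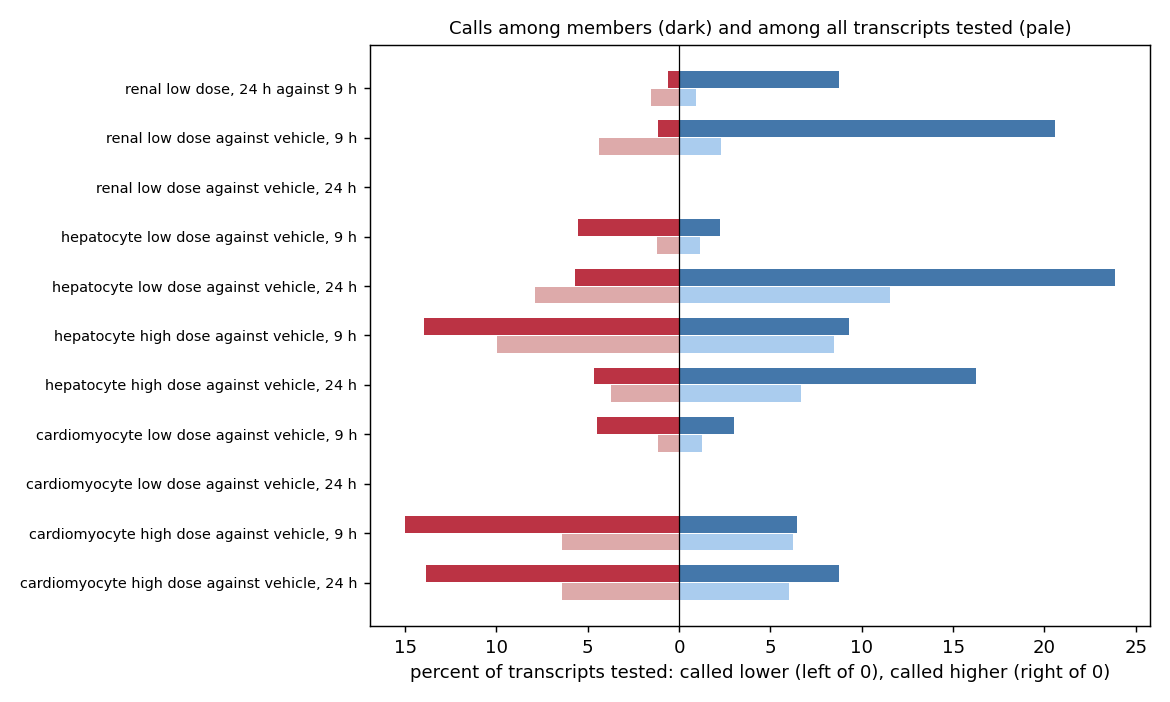
Percent of transcripts called lower (left of 0) and higher (right of 0) in each of the 11 comparisons tested (y axis), for the members tested (dark bars) and for all transcripts tested (pale bars). In renal cells at the low dose the members' bars extend to the higher side at 8.77% (24 h against 9 h) and 20.6% (against the vehicle libraries at 9 h, which the rule used), with no member called against vehicle at 24 h, and in cardiomyocytes at the high dose the longer bars are on the lower side.

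Many members had a mean below 1 CPM in the other cells. In vehicle at 9 h, 49 members (27.2%) reached a mean of 1 CPM in neither hepatocytes nor cardiomyocytes, against 5.93% of the transcripts expressed in renal cells. A further 56 (31.1%, against 10.7%) reached it in cardiomyocytes alone, 12 (6.67%, against 3.92%) in hepatocytes alone and 63 (35%, against 79.5%) in both. All but 16 of the members were in the expressed set themselves. Within bands of the renal vehicle level at 9 h, the share found in neither of the other cells was 55.2% against 43.4% under 1 CPM, 35.7% against 12.0% from 1 to 10 CPM, 9.84% against 1.57% from 10 to 100 CPM and 10% against 0.660% above that. No test was made on these shares. Lengths were similar, with medians of 2405 and 2246 bases.

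The classes had similar courses in direction. From 9 to 24 h in vehicle, the median log2 difference was 0.68 for members in neither of the other cells, 0.55 for those also in cardiomyocytes, 0.54 for those also in hepatocytes and 0.40 for those in both. At the high dose the medians in the same order were -0.33, -0.53, -0.51 and -0.65, so members in neither had the largest difference in vehicle and the smallest at the high dose. The log2(CPM + 1) scale understates the differences of transcripts with few counts, and the median in vehicle at 24 h was 4.23 CPM, not scaled for length, for members in neither and 34.7 CPM for those in both.

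In hepatocytes, between 86 and 90 members passed the filter on low counts in each comparison. At the low dose (0.025 mM) at 9 h, 5 fell and 2 rose of 90 tested, where 1.22% of all transcripts fell and 1.12% rose, and 8 fell without MS-95 (background 1.66%). At the high dose (0.125 mM) at 9 h, 12 fell and 8 rose of 86 tested, near the background of 9.95% and 8.48%. At 24 h the low dose gave 21 that rose and 5 that fell of 88 (background 11.6% and 7.89%), and the high dose 14 that rose and 4 that fell of 86 (background 6.65% and 3.72%). A DESeq2 fit also used its own size factors and took in all transcripts with more than 1 count, so it held more members. It gave 29 that rose and 32 that fell at the low dose (18.0% and 19.9% of the members fitted, background 9.74% and 18.1%). At the high dose it gave 23 that rose and 27 that fell (13.9% and 16.4%, background 7.09% and 14.9%). Tool, scaling and filter differed together in that fit and were not told apart. Both comparisons share the vehicle group that holds MS-183. Without that library edgeR gave 39 that rose and 11 that fell of 90 at the low dose (background 20.1% and 16.9%). At the high dose it gave 33 that rose and 9 that fell of 90 (background 15.1% and 11.6%). The counts that fell were 2 or 3 at the low dose without MS-182, MS-111, MS-113, MS-114 or MS-115 (background 4.84% to 5.96%), and 1 or 2 at the high dose without any 1 of the other 9 libraries (background 2.11% to 2.88%), so the shares over all transcripts were smaller as well. The median log2 fold change at the low dose at 24 h was 0.44, and 0.64 without MS-183. It was 0.13 with no filter on low counts (-0.079 over all transcripts) and -0.24 with DESeq2 (-0.35 over all).

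The hepatocyte vehicle level itself differed between the times. The summed CPM of the members was 12925 to 14053 in the hepatocyte vehicle libraries at 9 h and 6215 to 7341 at 24 h in 4 libraries, with 3625 in MS-183. At 24 h the low-dose libraries held 12447 to 14018 and the high-dose libraries 10703 to 12991, within or below the vehicle range at 9 h and above all vehicle libraries at 24 h. A single member, a transcript of 1724 bases, took 48.0% to 49.6% of the sum in vehicle at 9 h. At 24 h it took 48.7% to 50.4% in 4 vehicle libraries, 5.73% in MS-183 and 37.95% to 44.6% in the treated libraries.

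In cardiomyocytes the members tested leaned to the lower side at the high dose (1.5 mM). At 9 h, 21 fell and 9 rose of 140 tested, where 6.41% of all transcripts fell and 6.22% rose. At 24 h, 19 fell, 12 rose and 43 were not tested (background 6.39% and 6.01%), and the median log2 fold change was -0.19 at each time. At both times 6 members fell, 4.48% of those tested at both, against 2.999% of all transcripts. At the low dose (0.5 mM) at 9 h, 6 fell, 4 rose and 46 were not tested (background 1.14% and 1.28%). Without library MS-158, 12 fell and 8 rose (background 2.01% and 2.39%), and 3 fell without MS-153, MS-154, MS-155, MS-157, MS-159 or MS-160 (background 0.694% to 0.829%). At the low dose at 24 h no transcript at all was called with edgeR (background 0%), 12 members had an unadjusted p under 0.05 (8.82%, against 11.9% of all transcripts) with 44 not tested, and DESeq2 called 1 member lower and 2 higher (DESeq2 background 0.134% and 0.607%). Without MS-174 the edgeR background was 0.198% lower and 0.553% higher and 18 members had an unadjusted p under 0.05 (13.2%, against 11.6% of all). Without MS-172, a library low in the summed CPM of the members, 22 members did (16.1%, against 16.6% of all), and no member was called when either library was left out.

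Some members rose in the other cells. ENSRNOT00000010040 (2500 bases) had 104.9 to 109.5 CPM in renal vehicle libraries at 24 h and 38.8 to 42.0 CPM at the renal high dose. In hepatocytes at 24 h it had 1.49, 1.70, 0, 1.03 and 1.43 CPM in vehicle, the 0 being MS-183, where a count of 0 allows up to 12.0 CPM. At the hepatocyte low dose it had 34.8, 39.2, 38.4, 26.3 and 33.8 CPM, above every vehicle library. The log2 fold change was 4.57 (SE 0.24, adjusted p = 2.21e-06, edgeR quasi-likelihood test with Benjamini-Hochberg adjustment), and 4.57 again without MS-183 (SE 0.17, adjusted p = 8.82e-09, same edgeR test). At the hepatocyte high dose at 9 h it had fallen, from 21.3 ± 4.81 CPM in vehicle to 7.97 ± 1.18 CPM (SD, n = 5; log2 fold change -1.33, adjusted p = 4.51e-05, same edgeR test). Its hepatocyte vehicle level was itself lower at 24 h than at 9 h, so the rise at 24 h was measured against a low vehicle level. In all 30 cardiomyocyte libraries it was at or below 1.27 CPM.

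ENSRNOT00000018549 (1623 bases) rose in cardiomyocytes at the high dose. It had 3.58 to 4.49 CPM in vehicle at 9 h and 90.4, 90.2, 90.8, 117.7 and 117.1 CPM at 1.5 mM. The log2 fold change was 4.61 (SE 0.11, adjusted p = 8.32e-11, edgeR quasi-likelihood test with Benjamini-Hochberg adjustment). At 24 h it was 2.98 (SE 0.13, adjusted p = 3.94e-08, same edgeR test), smaller than at 9 h, though that difference was not tested. In renal cells it was among the 2 members that fell at the low dose at 9 h (log2 fold change -0.85, adjusted p = 4.42e-06, same edgeR test). It had 19.0, 21.4, 22.0, 25.6 and 24.0 CPM there, against 38.3 to 43.1 CPM in the vehicle libraries, which the rule used. At 24 h its renal vehicle libraries lay apart, at 40.3, 38.6 and 40.4 CPM in 3 and at 21.7 and 20.7 CPM in MS-137 and MS-140, and all of them were above the high-dose range of 5.05 to 11.5 CPM.

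**Figure D5:**
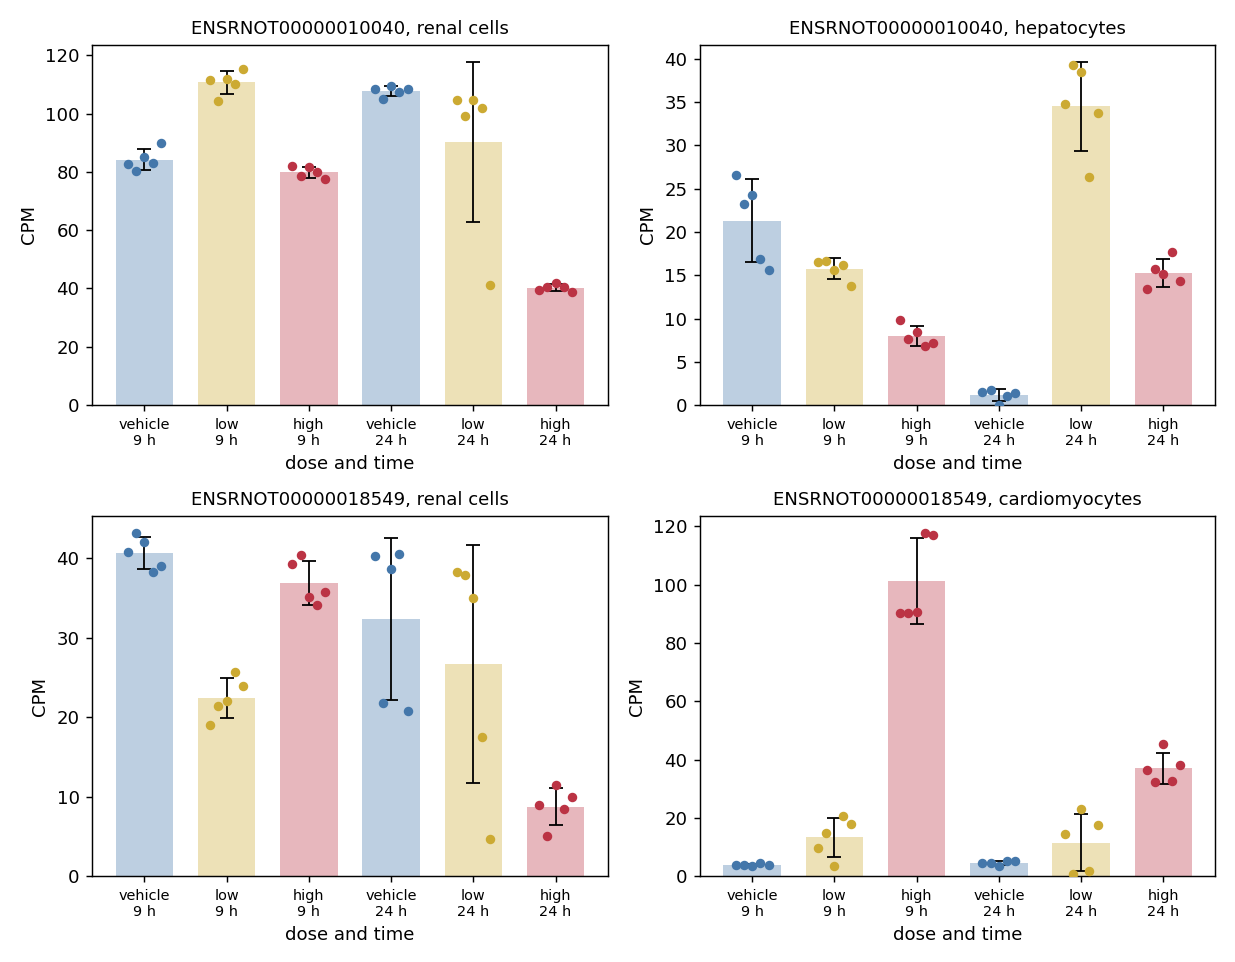
CPM (y axis) by dose and time (x axis) of ENSRNOT00000010040 in renal cells and hepatocytes and of ENSRNOT00000018549 in renal cells and cardiomyocytes; points are libraries, bars means and error bars SD (n = 5). Both were low at the renal high dose at 24 h, while the former was at 34.5 CPM in hepatocytes at the low dose at 24 h and the latter at 101.2 CPM in cardiomyocytes at the high dose at 9 h.

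ENSRNOT00000025258, expressed in all 3 cell types, lay below vehicle at 9 h and above it at 24 h in cardiomyocytes at the high dose, and the change between the times was not tested. At the high dose at 9 h it fell to 53.03 to 73.0 CPM from 115.9 to 129.8 CPM in vehicle (log2 fold change -1.03, adjusted p = 2.93e-06, edgeR quasi-likelihood test with Benjamini-Hochberg adjustment). At 24 h it was 79.1 to 103.8 CPM against 62.9 to 76.0 CPM (log2 fold change 0.41, adjusted p = 0.00416, same edgeR test), a difference that did not reach the fold threshold. In hepatocytes at the high dose at 9 h it fell by the same log2 fold change of -1.03 (adjusted p = 0.00139, same edgeR test), from 3.39 to 4.51 CPM in vehicle to 1.27 to 2.72 CPM. In hepatocyte vehicle at 24 h, 4 libraries had 1.59, 1.81, 1.20 and 1.19 CPM, and MS-183 had 88.2 CPM from 22 counts. The treated libraries had 10.1 to 16.7 CPM at the low dose and 5.93 to 7.86 CPM at the high dose, above the other 4 vehicle libraries and below MS-183. With MS-183 neither dose was called, with log2 fold changes of 1.16 (adjusted p = 0.582) and -0.33 (adjusted p = 0.92) in the same edgeR test. Without it the transcript rose by 3.17 at the low dose (SE 0.20, adjusted p = 3.29e-07) and by 2.23 at the high dose (SE 0.16, adjusted p = 2.31e-06, same edgeR test), so both direction and call at the high dose rested on that library.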

How the data were processed

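RNA of 90 libraries, 5 in each of 18 groups, was used. Groups and library numbers came from the sample labels. Libraries were stranded and poly-A-enriched. For every target, the authors deposited a length, an estimated count and a TPM from Kallisto 0.42.4 (Rnor_6.0 transcriptome, per the submitters' processing notes). Kallisto divides a read among all transcripts it is compatible with, so transcripts of similar sequence share counts. The deposited TPM served in 1 alternative only. Of 65166 targets, 25095 genomic intervals were left out, since the sources used here do not describe them, and 40071 Ensembl transcripts were kept.

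CPM was computed over the Ensembl transcripts, with a pseudocount of 1 before log2. Pairs of groups were compared after rounding the counts, using edgeR 4.0.16 under R 4.3.3 (two-sided glmQLFTest after filterByExpr, TMM scaling and glmQLFit), with Benjamini-Hochberg adjustment over all transcripts tested. The functions were tested on simulated data that held no library apart from its group, so that test does not bear on MS-145 or MS-183. The standard error is the log2 fold change divided by the square root of F. The alternatives were DESeq2 1.42.0, no filter on low counts, adjusted p alone, each library left out in turn and, for the rule, other scalings, pseudocounts and summaries. The renal libraries held at least 10729300 counts on transcripts; the floor of 3 counts for a value of 0 covers counting error only.

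The members, the gene lists and the tests were chosen with earlier results of these data known. The planned lists of genes and cell type markers were not used, because 0 transcripts matched the gene table (assembly GRCr8), and no sequence is given for the same reason. Named transcripts were the 2 members with the lowest 24 h ratio, and the called members with the largest rise in hepatocytes and in cardiomyocytes, each with all 5 libraries apart and a mean of at least 10 CPM. The members of 1050, 1724 and 6966 bases were described after their values were seen.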

Additional observations from a re-analysis of the deposited data

Results flagged for a closer look

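Each group of 5 libraries was checked for a library far from the others in the summed CPM of the members. The CPM of named transcripts was checked in some of the groups only. Of 54 such checks, 4 found a library far from the others, in 3 groups, where chance alone gives about 2.7 (1 in 20). ENSRNOT00000025258 in hepatocyte vehicle at 24 h, where MS-183 stood far above the others, is not among these 4. In the renal low-dose group at 24 h, the summed CPM of the members was 10223 in MS-145 against 18350 to 20103 in the other 4 libraries. The same library gave 41.3 CPM for ENSRNOT00000010040, against 99.1 to 104.6 CPM in the others. In cardiomyocytes, the summed CPM of the members at the low dose was 2741 in MS-158 at 9 h, where the other 4 libraries held 4397 to 4668, and 2698 in MS-172 at 24 h, where the others held 4247 to 4790. MS-145, MS-158 and MS-172 each had the fewest counts on transcripts in their group, and their medians over all expressed transcripts were lower as well, at -0.70, -0.80 and -1.03 on the log2 scale against renal vehicle at 9 h. The part of depth in these values was not tested.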

How the results depend on the processing

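No paired analysis was possible because no replicate number occurs in more than 1 group. The rule was sensitive to its scale: 76 of the 180 members were chosen again with a pseudocount of 5 and 99 with the deposited TPM. The share chosen again was 96.1% on TMM-scaled CPM, 85.6% with a pseudocount of 0.5, 76.1% with medians and 87.2% to 95.6% when 1 library was left out. The counts below are of members called, with the share of all transcripts called in brackets. DESeq2 gave 4 lower (1.45%) for renal low dose between times and 4 lower (3.58%) against vehicle at 9 h. For hepatocytes it gave 1 higher (0.651%) at low dose and 9 h, 32 lower (18.1%) at low dose and 24 h with a median log2 difference of -0.24, and 27 lower (14.9%) and 23 higher (7.09%) at high dose and 24 h with a median of 0.011. For cardiomyocytes at low dose it gave 8 higher (1.68%) at 9 h, then 1 lower (0.134%) and 2 higher (0.607%) at 24 h. With no filter on low counts, 2 (0.860%) were lower for renal low dose between times. For hepatocytes at 24 h that setting gave 1 lower (1.67%) and 12 higher (3.07%) at low dose with a median of 0.13, and 1 lower (0.649%) and 8 higher (1.42%) at high dose with a median of 0.20. The cardiomyocyte median at high dose and 9 h became -0.14. With adjusted p alone and at 9 h, 7 were lower (14.7%) and 81 higher (14.3%) for renal low dose, 14 lower (8.54%) and 4 higher (8.98%) for hepatocyte low dose, 21 lower (25.1%) for hepatocyte high dose, and 49 lower (22.2%) and 20 higher (23.1%) for cardiomyocyte high dose, which had 37 lower (15.4%) at 24 h. Leaving out 1 library gave 1 to 3 lower (1.10% to 2.36%) and 6 to 19 higher (0.480% to 1.43%) for renal low dose between times. For hepatocytes it gave 4 to 8 lower (0.839% to 1.66%) at low dose and 9 h, 2 to 11 lower (4.84% to 16.9%) and 15 to 39 higher (7.79% to 20.1%) at low dose and 24 h with a median of 0.39 to 0.64, 1 to 9 lower (2.11% to 11.6%) and 10 to 33 higher (3.93% to 15.1%) at high dose and 24 h with a median of 0.25 to 0.54, and a median of -0.096 to 0.018 at high dose and 9 h. For cardiomyocyte low dose at 9 h it gave 3 to 12 lower (0.694% to 2.01%) and 3 to 8 higher (0.704% to 2.39%). The cause was not tested. In all, 369 values under an alternative stayed close to the reported one and 74 moved.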
